A study of Drosophila melanogaster with 2 samples.

Results

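The genes examined here were 7 of the 13968 protein-coding genes of Drosophila melanogaster on the chromosome arms. They comprise ush (u-shaped) with cbt (cabut), which lies inside it, and the 5 GATA factor genes pnr (pannier), srp (serpent), grn (grain), GATAd and GATAe. They were picked by name with the peaks of this experiment already known, so their signals are a description and carry no test. Chromatin immunoprecipitation followed by sequencing (ChIP-seq) located the protein CG4404, tagged with enhanced green fluorescent protein (eGFP) and precipitated with an antibody against GFP. The material was whole embryos of strain CG4404-GFP, aged 0 to 4 hours, as 2 biological replicates of 1 group; all of them carry the tagged transgene, and untagged embryos and input chromatin were not analysed here. Whole embryos mix every cell type, so a peak cannot be placed in a tissue, and binding in more cells cannot be told apart from stronger binding in fewer. The pooled replicates gave 128756 ranked peaks on the arms, of which 207 lay in a gene body of these genes or within 5 kb of one. Of these 207, 14 had an IDR of 0.01 or less, here called passing. IDR stands for irreproducible discovery rate, an estimate of the share of calls this good that do not recur between 2 matched sets of calls. The arms held 3948 passing peaks in all. The authors also deposited thresholded lists, in which every peak met that limit, with a larger and a conservative version for the pooled replicates.

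GATA factors are zinc finger transcription factors that bind the word GATA and set cell fates in blood, gut, fat body, heart, ectoderm and nerve cord. In Drosophila, srp drives blood, fat body and endoderm development, GATAe maintains midgut identity, pnr patterns the dorsal ectoderm, the heart and the bristles of the thorax, and grn acts in motor neurons and the posterior spiracles. The protein Ush is a cofactor of the FOG family that binds GATA factors, including Pnr and Srp, and changes what they do at their targets. The protein Cbt is a zinc finger factor related to the TIEG proteins of mammals that acts in dorsal closure and in the response to sugar.

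The sequences at 5 summits are given because these are the strongest peak of ush and cbt, the peak nearest the cbt start site, the strongest ush peak kept in the thresholded list, and the strongest passing peak of grn and of pnr. Each line holds 201 bases of the plus strand of dm6, from the RefSeq copy of that assembly, centred on the summit. Capitals mark the words of a fixed set wherever they occur on either strand. The GATA site was read as AGATAA or AGATAG, and also as TGATAA or TGATAG. The TATA box was read as TATAAA, the word of the insulator protein BEAF-32 as CGATA, and the longer replication element word that contains it as TATCGATA. The GAGA factor word was GAGAG, the Zelda word CAGGTA, the KLF word CACCC, the E box CAGCTG, and a further short word was CCCTG. The windows are, in order, chr2L:480996-481196, chr2L:479983-480183, chr2L:521999-522199, chr3R:8171582-8171782 and chr3R:16033820-16034020.
strongest peak of ush and cbt: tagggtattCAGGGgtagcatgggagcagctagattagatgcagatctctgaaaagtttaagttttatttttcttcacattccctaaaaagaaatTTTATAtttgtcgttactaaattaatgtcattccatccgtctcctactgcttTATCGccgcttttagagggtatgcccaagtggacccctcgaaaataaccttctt
peak nearest the cbt start site: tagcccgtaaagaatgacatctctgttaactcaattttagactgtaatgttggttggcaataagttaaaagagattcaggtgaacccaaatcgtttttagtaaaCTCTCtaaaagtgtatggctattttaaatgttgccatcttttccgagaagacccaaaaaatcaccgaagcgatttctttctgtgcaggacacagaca
strongest thresholded peak of ush: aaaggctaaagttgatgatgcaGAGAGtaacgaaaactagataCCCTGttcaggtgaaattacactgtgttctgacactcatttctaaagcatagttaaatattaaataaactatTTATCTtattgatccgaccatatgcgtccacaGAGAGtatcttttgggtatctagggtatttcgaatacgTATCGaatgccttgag
grn peak: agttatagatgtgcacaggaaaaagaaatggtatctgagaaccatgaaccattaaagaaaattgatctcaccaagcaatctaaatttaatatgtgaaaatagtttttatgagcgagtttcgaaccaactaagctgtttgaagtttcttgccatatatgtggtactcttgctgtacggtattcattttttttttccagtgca
pnr peak: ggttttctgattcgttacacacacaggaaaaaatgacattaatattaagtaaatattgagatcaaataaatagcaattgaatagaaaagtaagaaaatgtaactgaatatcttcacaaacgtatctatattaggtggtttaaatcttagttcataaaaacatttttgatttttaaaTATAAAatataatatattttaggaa
The strongest peak held TATAAA on the minus strand, starting 5 bases before its summit, with CCCTG and CGATA farther out. The ush peak held a GATA site, 2 GAGAG words, CCCTG and CGATA. The grn window held none of the words, and the pnr window held TATAAA alone.

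CG4404 signal at ush and cbt was among the highest of the experiment. ush (FBgn0003963, 2L, 476220 to 540560, plus strand) held 104 ranked peaks, 11 of them passing, in its body and 5 kb either side. cbt (FBgn0043364, 2L, 476446 to 479688, minus strand) lies within the ush transcription unit, and its own window held 19 ranked and 6 passing peaks, all 6 of which the ush window also counts. The strongest of them spanned 480895 to 481284, in an ush intron, with its summit 1408 bp upstream of the transcription start site (TSS) of cbt and 4.88 kb downstream of the first TSS of ush. Its signal, in the units of the peak caller that the authors used, was 1460 in replicate 1, 1189 in replicate 2 and 2638 in the pooled list. It ranked number 3 in each of these lists, and its IDR stood at 1e-05, the lowest value that the lists record. No peak of the other genes came near it.

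A neighbouring peak, from 479936 to 480222, had its summit 395 bp upstream of the cbt TSS. Its signal was 261 in replicate 1 and 223 in replicate 2, at rank 242 in both, and 478 in the pooled list, at rank 243. It too had an IDR of 1e-05. A smaller peak farther upstream, from 481770 to 482153, had signals of 64.0 in replicate 1 and 51.4 in replicate 2, and its IDR was 0.000567 in replicate 1 and 0.00712 in replicate 2. The replicates thus gave the 2 strong peaks almost the same place in their lists, while the small one fell at ranks 2015 in replicate 1 and 2343 in replicate 2.

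The remaining passing peaks of the cbt window lay on the far side of the gene, at CG4297. The peak from 472278 to 472661, with its summit 270 bp upstream of a TSS of CG4297, had signals of 85.8 in replicate 1 and 77.1 in replicate 2. The peak from 471099 to 471482, in an intron of CG4297, had signals of 57.7 in replicate 1 and 53.0 in replicate 2. It passed in replicate 2, with an IDR of 0.00362, but not in replicate 1, with an IDR of 0.439. The last, from 471304 to 471687, overlapped it, and its own signal in the pooled list was 4.40, at rank 124802. The pooled IDR was 0.00205 for both of the overlapping peaks, so that the weak one passed beside the strong one. Their nearest TSS belongs to CG4297, and they count for ush and cbt by distance alone.

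**Figure D1:**
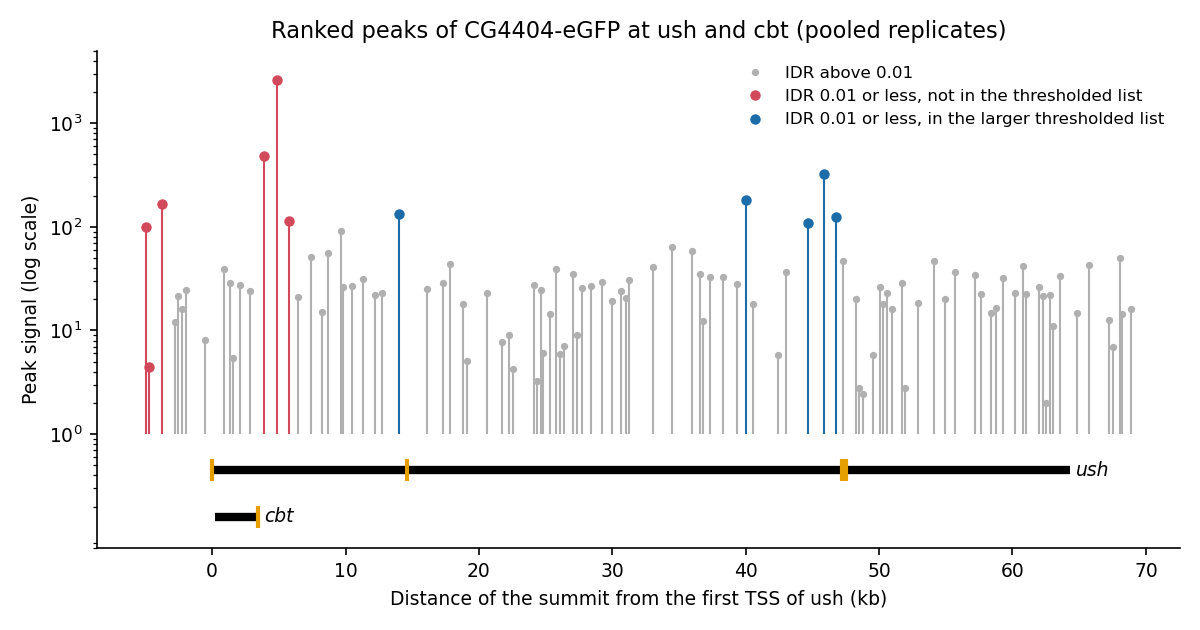
Signal of each ranked peak of the pooled replicates (vertical log axis, peak caller's own units) against the distance of its summit from the first ush TSS in kb; black bars are gene bodies, orange ticks TSSs, and colours the peak's IDR and its presence in the larger thresholded list. The peak of signal 2638 stands at 4.88 kb, next to cbt, and the 5 thresholded peaks lie farther into ush, 4 of them before its last TSSs.

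None of the 6 passing peaks at cbt is in a thresholded list. The stretch from 471099 to 482153 (11.1 kb) held 6 passing peaks in the pooled ranked list, 4 in replicate 1 and 5 in replicate 2, and 0 in the thresholded list of any of them. Over all arms, 113 passing peaks (2.86%) were missing from the larger thresholded list, and the strongest ush-cbt peak had the highest signal of these 113. The next thresholded peak begins at 490072. The headers of the files name 1 further input of unstated kind for the thresholded lists, and its part in the missing stretch was not tested. Results that rest on the thresholded list alone therefore leave out the strongest passing peak of ush and all those of cbt. No input was analysed here, so whether these peaks mark binding or were left out as artefacts was not tested.

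Deeper in ush, 5 passing peaks were in the thresholded list as well. The strongest, from 522010 to 522224, had its summit 1367 bp upstream of the TSS at 523466, with signals of 201 in replicate 1, 121 in replicate 2 and 323 in the pooled list. Its place in the lists differed more than that of the cbt peaks, at rank 373 in replicate 1 and rank 727 in replicate 2. The peak from 522779 to 523162 lay 495 bp upstream of the same TSS, with signals of 68.7 in replicate 1 and 66.0 in replicate 2. The peak from 520712 to 521095 had signals of 50.7 in replicate 1 and 53.2 in replicate 2, and passed in replicate 2 (IDR 0.00171) but not in replicate 1 (IDR 0.0430). The peak from 516028 to 516411, 7246 bp upstream of that TSS, had signals of 91.6 in replicate 1 and 92.3 in replicate 2. These 4 peaks thus stood together before the downstream start sites of ush, with pooled signals between 110 and 323.

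The fifth, from 490072 to 490455, had its summit 571 bp upstream of the TSS at 490835, which ush shares with lncRNA:CR46258, and lay in a 5′ UTR of ush. Its signals were 64.0 in replicate 1, at rank 2013, and 65.4 in replicate 2, at rank 1737. The strongest ush peak that did not pass, centred 9.65 kb from the first TSS, had a pooled signal of 91.1 and an IDR of 0.0238, and it passed in the conservative pooled list. At the first TSS of ush itself no passing summit lay within 500 bp.

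pnr (FBgn0003117, 3R, 16026079 to 16041796, plus strand) held 20 ranked and 2 passing peaks, both in the larger thresholded list. The peak from 16033728 to 16034111 had its summit 666 bp upstream of the downstream TSS at 16034586, with signals of 62.7 in replicate 1 and 45.0 in replicate 2, and 103 in the pooled list. Its IDR was 0.000605 in replicate 1 and 0.00931 in replicate 2, so replicate 2 lay just inside the threshold. The other peak, from 16033942 to 16034325, overlapped it and had a pooled signal of 10.8, at rank 101949. In replicate 1 that second peak had a signal of 3.28, and in replicate 2 the peak beneath it was the stronger one again. Its IDR was 0.777 in the conservative pooled ranking, where it did not pass.

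grn (FBgn0001138, 3R, 8147368 to 8181444, minus strand) held 56 ranked peaks and 1 that passed, from 8171490 to 8171873, in an intron 9762 bp downstream of its only TSS. Signals there were 50.4 in replicate 1, 48.4 in replicate 2 and 103 in the pooled list, and the IDR was 0.00499 in replicate 1 and 0.00433 in replicate 2. A stronger peak began just beyond the 5 kb limit upstream of grn, from 8186472 to 8186855, with a pooled signal of 166, and is not counted here. The passing peaks of grn and pnr thus had nearly equal pooled signals, at rank 2370 for grn and 2384 for pnr.

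srp, GATAe and GATAd had no passing peak in any list. srp (FBgn0003507, 3R, 15986152 to 16004085, plus strand) held 13 ranked peaks, the strongest with a pooled signal of 56.9 and an IDR of 0.750. GATAe (FBgn0038391, 3R, 16009105 to 16019133, plus strand) held 22, the strongest with a signal of 54.9 and an IDR of 0.0406. In the conservative pooled ranking the same peaks had an IDR of 0.0558 for srp and 0.706 for GATAe. Neither gene can therefore be called nearer to passing. In replicate 2 the strongest peak in both windows was the same one, signal 25.8, which lies between these neighbouring genes. In replicate 1 the strongest peaks were separate, with signals of 33.2 for srp and 37.7 for GATAe. Over the 7 genes the 193 ranked peaks that did not pass had a median signal of 22.4 and a maximum of 91.1, so the strongest peaks of srp and GATAe lay in the upper part of that range. Among all ranked peaks of the pooled list they stood at percentiles 95.6 for srp and 95.1 for GATAe. Each was picked as the strongest of its window, so a high place follows in part from that choice.

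GATAd (FBgn0032223, 2L, 10333734 to 10339185, plus strand) had no ranked peak at all in the lists used here, in the pooled replicates, replicate 1 or replicate 2. Without any ranked peak in their windows were 769 protein-coding genes (5.51%). The interval free of ranked peaks around GATAd was 43.9 kb in replicate 1, 45.4 kb in replicate 2 and 45.6 kb in the pooled list. It is one of the longer ones: 18 intervals of the 21743 peaks on the arm were longer in the pooled list. The GATAd window holds 0 undetermined bases in the assembly and is 62.8% A or T. Because ranked lists reach down to signals of a few units, the empty window differs from those of srp and GATAe, which held weak peaks; whether reads map there was not tested.

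**Figure D2:**
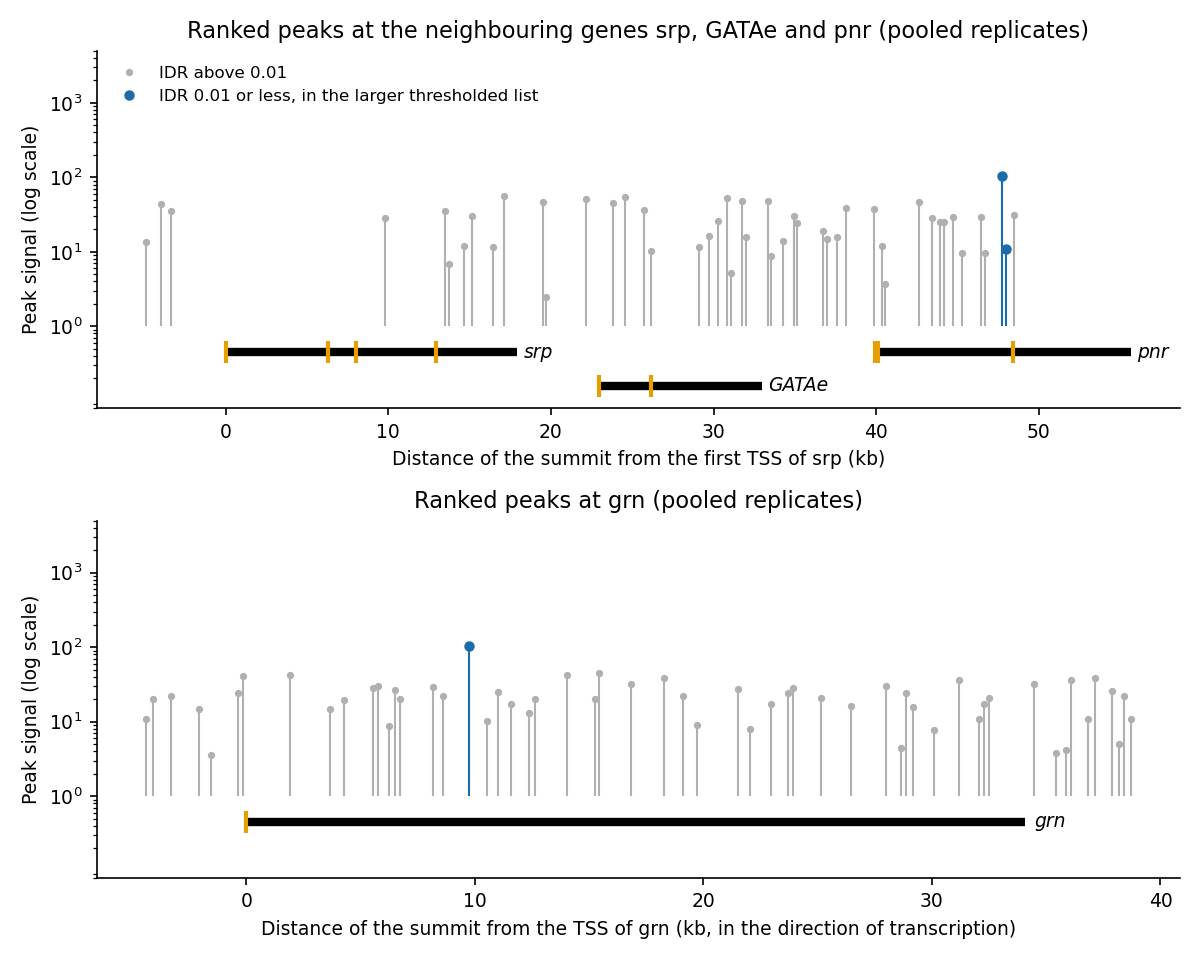
Signal of each ranked peak of the pooled replicates (vertical log axis, peak caller's own units) against the distance of its summit in kb from the first srp TSS (upper panel) and from the grn TSS in the direction of transcription (lower panel); black bars are gene bodies, orange ticks TSSs, and blue points the passing, thresholded peaks. A single blue point at grn and an overlapping pair at pnr stand at signals of 103 and below, and srp and GATAe hold grey points only.

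By the strongest ranked peak, the order in the pooled list was ush and cbt (rank 3, the same peak), grn (2370), pnr (2384), srp (5854) and GATAe (6457), with GATAd unlisted. In replicate 1 the order was ush and cbt (3), pnr (2069), grn (2680), GATAe (3957) and srp (5081). In replicate 2 it was ush and cbt (3), grn (2553), pnr (2824), and srp and GATAe together (12396). Both replicates put ush and cbt first, but grn and pnr change places between them. srp and GATAe tie in replicate 2 on a shared peak, and their order in replicate 1 is the reverse of that in the pooled list, so neighbours within either pair cannot be ordered. Among genes ranked by their strongest ranked peak in the pooled list, ush and cbt tied for place 9, grn stood at 4290, pnr at 4311, srp at 7324 and GATAe at 7744. A window with more ranked peaks has more chances of a high one. Windows ran from 13.2 kb at cbt to 74.3 kb at ush, and their length was not matched.

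**Figure D3:**
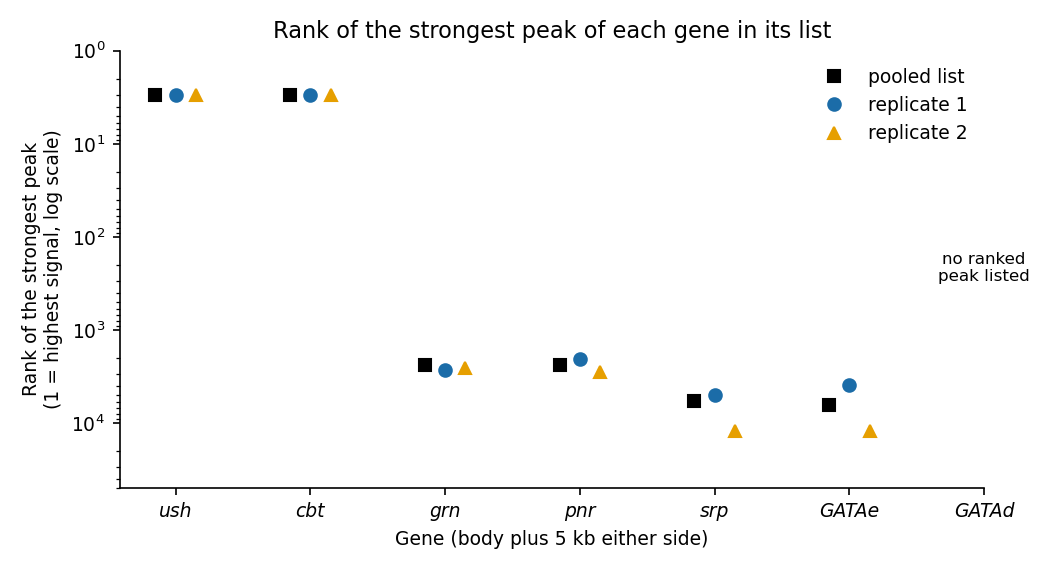
Rank of the strongest ranked peak of each gene (vertical log axis, rank 1 at the top) in the pooled list, replicate 1 and replicate 2. All 3 lists put the peak of ush and cbt at rank 3, grn and pnr lie between 2069 and 2824, and srp and GATAe between 3957 and 12396.

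The counts among the 7 genes are set beside the shares of all protein-coding genes. With 7 genes, of which ush and cbt share a locus, these counts show neither likeness nor difference. Of the 7, 3 (ush, pnr and grn) had a peak of the larger thresholded list in their window, where 41% of all protein-coding genes had one. With passing ranked peaks, which add cbt, it was 4 of 7, where 41.4% of all genes had one. The call for cbt rests on the flanks: its gene body alone held 0 passing peaks, and the strongest ranked peak there stood at percentile 85.5, against 99.998 with the flanks. A thresholded summit lay within 500 bp of a TSS for 2 of 7, ush and pnr, where 14.2% of all genes had one. Both of these are marginal: the ush summit lies 495 bp from its TSS, and that of pnr, at 452 bp, is the weak overlapping peak of signal 10.8. With a window of 250 bp, 0 of the 7 genes had such a summit; the list of replicate 1 alone gave 1 gene, that of replicate 2 alone 0, and the conservative list 1.

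The density of peaks differed between the genes. Per 100 kb of window, passing peaks numbered 45.3 at cbt, 14.8 at ush, 7.78 at pnr and 2.27 at grn, against 2.87 over the arms. Per 10 kb, ranked peaks numbered 14.3 at cbt, 13.99 at ush, 12.7 at grn, 11.0 at GATAe, 7.78 at pnr and 4.65 at srp, against 9.36 over the arms. Thus, in the pooled list, grn was dense in ranked peaks that did not pass. Its density of passing peaks, near the level of the arms, rests on 1 peak. In the single replicates the ranked peaks of grn stood closer to the arms. Per 10 kb they numbered 9.30 in replicate 1, against 7.70 over the arms, and 9.53 in replicate 2, against 8.50. Of all ranked peaks at the 7 genes, 14 of 207 passed, where 3.07% of ranked peaks passed over the arms. The 14 hold 11 peaks of the ush-cbt locus, and 2 of the 14 overlap a stronger one, so that merged they make 12 regions. Their median signal was 120, against 117 over all passing peaks of the arms.

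The replicates gave the same positions for the passing peaks. All 14 overlapped a ranked peak in replicate 1 and in replicate 2, and the summit moved by a median of 13.5 bp in either replicate, at most by 194 bp at the overlapping peaks. Of all 207 ranked peaks of these genes, passing or not, 160 had a ranked peak in both replicates. The same share and shift over all passing peaks of the arms are not given here. Passing peaks of both replicates overlapped 11 of the 14, where this held for 53.2% of all passing peaks. The 3 others passed in replicate 2 and not in replicate 1. Pooled peaks that overlap each other can share a replicate peak. The overlapping pair at CG4297 and that at pnr were each matched to a single replicate 2 peak, so these counts are not all independent. At an IDR of 0.001 or less in all lists, the share at the 7 genes was 50% of 12 peaks, so the 11 of 14 includes peaks near the threshold. The share over all peaks at that stricter limit is not given here, and the 53.2% is not its counterpart. The pooled peaks were called from the same 2 replicates, so this count is a description.

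**Figure D4:**
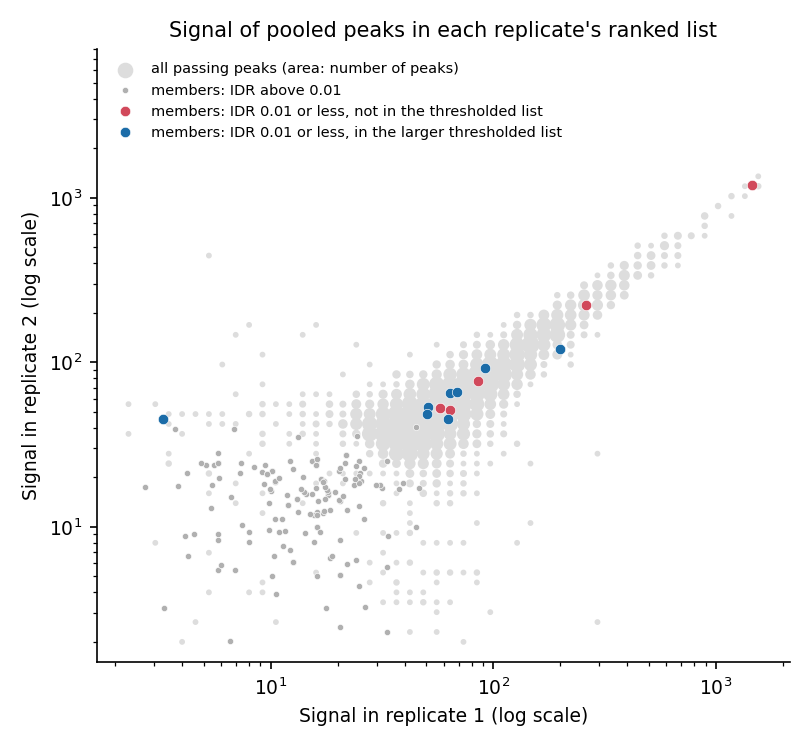
Signal in replicate 1 (horizontal) and replicate 2 (vertical) of the ranked peaks that overlap each pooled peak, both on log axes in the peak caller's own units; coloured points are peaks of the 7 genes and pale grey discs all passing peaks, their area giving the number. Most passing peaks of the 7 genes lie along the diagonal cloud up to signals of 1460 and 1189, and the blue point at the far left is the weak overlapping peak of pnr, with 3.28 in replicate 1.

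By annotation, 11 of the 14 summits lay in introns, 2 in a 5′ UTR, 1 in intergenic sequence and 0 in coding exons. Within 500 bp of any TSS lay 6, and over 1000 bp from every TSS lay another 6. The nearest TSS belonged to one of the 7 genes for 10 of the 14. No share over all passing peaks is given for these counts. As 11 of the 14 peaks are those of the ush-cbt locus, the counts describe mainly that locus.

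The binding word of the GATA factors was found at few of these summits. Of the 14 windows of 201 bases, 3 (21.4%, 95% Wilson interval 7.57 to 47.6%, counting error only) held one of the GATA sites, against 35.4% of the windows at all passing peaks. In flanking windows centred 500 bp away, 6 of the 14 (42.9%) held one, against 29.9% over all peaks. With 200 bp either side of the summit the share was 57.1% at the 7 genes, against 53.6% over all peaks. A match here is a run of letters in a window and says nothing of a factor's presence.

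The other words gave small counts. TATAAA was found at 3 of the 14 summits (21.4%) and 1 of the 14 flanks (7.14%), against 34.3% and 19.1% over all peaks. GAGAG stood at 3 of the 14 summits and 9 of the 14 flanks (64.3%), against 21.8% of summits and 24.6% of flanks over all peaks. CCCTG was at 4 of 14 (28.6%), against 18.7%, and CACCC, the word read by KLF factors, also at 4 of 14, against 17.2%. CGATA was at 2 of 14 (14.3%), against 25.2%, the Zelda word CAGGTA at 1 of 14 (7.14%), against 4.13%, and CAGCTG at 1 of 14, against 8.23%. TATCGATA was at 0 of 14, against 2.20%. Summits were rich in A and T: their median A or T content was 63.7%, and that of their own flanks 55.7%, against 64.7% and 56.2% over all peaks. It was higher at the summit than in the flank for 11 of the 14, against 70.1% of all peaks.

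Likeness was measured by the summed difference in rank of the strongest peak over the ranked lists of both replicates. MED15, which encodes a subunit of the Mediator complex, has the strongest ush-cbt peak in its own window, so its difference is 0, as it is between ush and cbt. Among other peaks the nearest was one shared by D2hgdh and ph-p, the second a Polycomb group gene, with signals of 1381 in replicate 1 and 1221 in replicate 2 and a summed difference of 2. Next, at 3, came a peak in the windows of Adf1, CG15908 and Dpit47, with signals of 1561 in replicate 1 and 1099 in replicate 2, and a peak in those of CG14100, CG9231 and CG9330, with 1498 and 1267. Because the ush-cbt peak ranked number 3 in both replicates, its nearest peaks by this measure had to be others of the highest ranks.

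Genes that work with the GATA factors, Ush and Cbt were taken from 9 lists, and their signals are given for replicate 1 and then replicate 2. Of 91 listed genes, 87 matched the annotation by symbol (CG9895, dbt, h and dCBP did not), and 51 of them (58.6%) had a passing peak in their window, against the 41.4% of all protein-coding genes given above. The lists were chosen with earlier results of these data known, so the difference between these shares is a description and carries no test. Many of these genes are long, and window length was not matched. Cofactors of FOG and GATA proteins had one at 9 of 10 genes: Caf1-55, a histone-binding subunit of the NuRD complex, had a peak with signals of 977 in replicate 1 and 855 in replicate 2, nearest to the TSS of Art3, and simj, another NuRD subunit, had one with 278 in replicate 1 and 197 in replicate 2. The nearest TSS of the simj peak was that of CG11811.

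Of the Dpp pathway, which sets pnr expression in the dorsal ectoderm, 11 of 14 genes had a passing peak. Over all protein-coding genes the share was 41.4%, with window length not matched. The ligand gene gbb had one with signals of 709 in replicate 1 and 487 in replicate 2, but its nearest TSS was that of asRNA:CR45928, and the peak of the Smad gene Med, with 325 and 229, lay 14 bp from the TSS of Mnat9. Of dorsal ectoderm and amnioserosa genes 7 of 10 had one, led by a single peak in the windows of Doc2 and Doc3, T-box genes, with 241 in replicate 1 and 202 in replicate 2. The nearest TSS of that peak was that of CG5194. Thresholded summits within 500 bp of their own TSS were found for 3 of the 10 cofactor genes, 0 of the 14 Dpp pathway genes and 0 of the 10 dorsal ectoderm and amnioserosa genes, against the 14.2% of all protein-coding genes given above.

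Blood and haemocyte genes had a passing peak at 5 of 10, among them kn, whose peak (107 in replicate 1 and 42.6 in replicate 2) lay at BEAF-32, and odd, with 49.96 and 63.5. The gut and endoderm list had one at 3 of 7, where the peak of cad, a homeobox gene, with 129 and 93.7, lay nearest to Pomp and that of cnc, with 67.8 and 44.7, lay 304 bp downstream of a cnc TSS. Bristle prepattern and proneural genes had one at 4 of 11, with ase, a proneural gene, at 125 in replicate 1 and 94.1 in replicate 2, and caup at 80.1 and 79.9. Over all protein-coding genes 41.4% had a passing peak. These lists are small, and their counts were not tested against that share.

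For genes that share a setting with Cbt, the JNK pathway and dorsal closure list had a passing peak at 5 of 10, with jar, a myosin gene, at 162 in replicate 1 and 114 in replicate 2 and kay, the Fos gene, at 123 and 71.1. The kay peak lay nearest to the TSS of lncRNA:CR46110. The clock list had one at 4 of 9, with the kinase gene sgg at 215 and 159 and the clock factor gene vri at 50.1 and 74.2. The KLF and SP zinc finger relatives of cbt had one at 3 of 8, with dar1 at 149 and 101 and btd at 99.9 and 86.0. The btd peak lay nearest to the TSS of lncRNA:CR42657. A thresholded summit within 500 bp of their own TSS was found for 3 of the 9 clock genes, 2 of the 7 gut and endoderm genes and 1 of the 10 JNK pathway and dorsal closure genes, and for 0 genes of the blood, bristle and KLF lists. Over all protein-coding genes, 14.2% had such a summit and 41.4% had a passing peak. The counts of these small lists were not tested against those shares. The signals given for the named genes of these lists were below those of the strongest ush-cbt peak in both replicates.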

How the data were processed

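Peaks are those the authors called and deposited per replicate and for the pooled replicates, as ranked lists (every candidate) and thresholded lists, on dm6 per the file headers. The sources used here do not name the aligner or peak caller. The deposited signal (column 7) is the peak caller's own value on a scale not given, used only within a list. The deposited −log10 IDR (column 12) gave the IDR, which the files cap at 1e-05. The larger pooled list is the main one and the conservative list an alternative. The pooled ranked lists hold 4 further signal columns, which were not used.

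Peaks of each gene overlapped its body or 5000 bp either side by at least 1 bp; gene models were those of the annotation of the same assembly. Summits up to 500 bp from a TSS counted as lying at that gene's TSS. Words were counted in 100 bp either side of the summit and in a window shifted by 500 bp. Read depth was not used here, so the number of peaks limits the precision, and Wilson intervals (95%) cover counting error only. With 1 group, no comparison between groups was made. Scripts used Python 3.11.15, numpy 2.4.6 and pandas 2.3.3, and were checked on simulated peaks. The 7 genes, the gene lists and the words were chosen with earlier results of these data known. In each gene list the 2 genes with the strongest passing peak are named.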

Additional observations from a re-analysis of the deposited data

How the results depend on the processing

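No paired analysis was possible because the samples form 1 group. Under alternative windows, IDR limits, lists and left-out replicates, 36 of 43 summary values stayed close to those reported, counts within 1.5 times and shares within their 95% interval. The 7 others were these. The number of the 7 genes with a thresholded summit within 500 bp of a TSS, 2 in the report, was 1 in the conservative list, 0 at 250 bp, and 0 to 1 when either replicate was left out. The share of the 14 peaks that passed in both replicates, 78.6%, was 50% at an IDR limit of 0.001. The share with a GATA site, 21.4%, was 57.1% with 200 bp either side of the summit and 71.4% for the core word GATA alone, chosen after seeing the data, against 75.4% of all peaks. Genes with a peak in their window numbered 4, not 3, with 10 kb either side, which brings in a peak for cbt, and from the ranked list. Of 54 values of single genes, 23 moved. Among them were 11 of 36 rank percentiles, some by little, as for ush from 99.9985 to 99.9983 without replicate 1. The others were pooled signals set against those of a single replicate, which share no common scale. The signal has no stated scale and no input was analysed here, so neither weak peaks nor empty windows show the absence of binding.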
